A study of Mus musculus with 4 samples.

Results

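Retnlg-positive neutrophils of mouse lungs that carried transplanted lung tumours were examined by single-cell RNA sequencing. The cells were chosen by their own counts of unique molecular identifiers (UMIs, each standing for 1 captured RNA molecule). A cell was kept with at least 200 genes and at most 10% mitochondrial UMIs. It was called a neutrophil when the 6 genes S100a8, S100a9, G0s2, Csf3r, Cxcr2 and Hdc gave at least 10 UMIs and at least 1% of its UMIs, with no UMI of Cd3d, Cd3e, Cd3g or Cd79a and at most 1 of the C1q genes. A neutrophil was called Retnlg-positive with at least 3 UMIs of Retnlg and none of Siglecf or Rsad2. The rule found 2391 such cells among 7073 neutrophils and 23730 cells kept. They numbered 697 in KO anti-PD-1 lungs, 877 in KO IgG lungs, 415 in WT anti-PD-1 lungs and 402 in WT IgG lungs. Because measured values chose the cells, the levels of these rule genes are given as a description only.

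Neutrophils are short-lived granulocytes that mature in the bone marrow, pass through the blood and enter inflamed tissue. They store antimicrobial proteins in granules that are filled in a fixed order. Azurophil granules with myeloperoxidase and elastase come first, then specific granules with lactoferrin, and last gelatinase granules. In mice, Retnlg, a secreted relative of resistin, is abundant in mature neutrophils of blood and marrow, along with Mmp8 and the stefin A cysteine protease inhibitors. Neutrophils of mouse lung tumours include a Siglecf-positive state that expresses chemokines and lacks much of that programme.

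KP cells, a mouse model of lung cancer, had been injected into a vein of B6 mice, and the lung tumours were followed by MRI. The tumour cells were either Asf1a knockout (KO) or wild type (WT) for Asf1a, a histone chaperone gene. The host, and so its neutrophils, carried the same genotype in every group. Mice received anti-PD-1 (clone 29F.1A12, 200 µg per mouse, 3 times each week) or isotype IgG for 1 week. PD-1 is an inhibitory receptor of T cells. The groups were KO tumours with anti-PD-1, KO tumours with IgG, WT tumours with anti-PD-1 and WT tumours with IgG. Lungs were perfused with PBS through the heart before digestion, and live whole-lung cells were sorted with DAPI, per the labels. Whether a neutrophil had sat in a vessel or in tissue was therefore not measured. The labels do not give the number of mice behind a library, their age or their sex.

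Each group was 1 library, so no difference below has a replicate check and no test was made. The intervals are 95% intervals of counting error only. The files held between 6074 and 6683 barcodes and between 16078095 and 22506737 UMIs per library. Asf1a gave 243 UMIs in KO anti-PD-1 cells, 293 in KO IgG cells, 418 in WT anti-PD-1 cells and 437 in WT IgG cells. These counts do not check the tumour genotype, since tumour cells were not separated. Depth differed: Retnlg-positive neutrophils had a median of 826 UMIs in KO anti-PD-1, 990 in KO IgG, 1185 in WT anti-PD-1 and 1341 in WT IgG lungs. T cells had medians of 1743, 1674, 2098 and 2389 UMIs in that order of groups, also shallower in both KO than in both WT libraries. Shares of cells are therefore also given after thinning each cell to 500 UMIs. Gene levels are counts per 1000000 UMIs (CPM) over the summed UMIs of the cells. Barcodes could be read for the WT IgG library only, so barcodes shared between libraries could not be counted.

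The marker genes of the name were compared with their levels in T cells. Retnlg reached 20963 CPM in KO anti-PD-1, 21534 in KO IgG, 15676 in WT anti-PD-1 and 16605 in WT IgG lungs. In T cells of the same libraries it reached 81.7, 82.7, 21.4 and 43.5 CPM. S100a8, a subunit of calprotectin, took between 96195 and 115102 CPM in the Retnlg-positive neutrophils and between 208 and 280.4 CPM in T cells. S100a9, its partner subunit, took between 42506 and 64794 CPM, against 123 to 182 CPM in T cells. Both calprotectin genes and Retnlg were used by the rule, whereas the following markers were not. Stfa2l1, a stefin A gene, had 1554 CPM in KO anti-PD-1, 1776 in KO IgG, 999.8 in WT anti-PD-1 and 1629.9 in WT IgG lungs, against at most 4.50 CPM in T cells. Wfdc21, a gene of a secreted WAP-domain protein, had 4345, 4431, 2546 and 2839 CPM in those groups, against 19.5, 23.9, 4.79 and 7.50 CPM in T cells. Stfa2l1 and Wfdc21, which chose neither set of cells, thus stood far above the T cell level in each library. T cells had to be low in the neutrophil genes, so this comparison cannot tell the Retnlg-positive set from other neutrophils. Wfdc21 had 1158, 1251, 484 and 505 CPM in neutrophils with fewer than 3 Retnlg UMIs. A list of 26 circulating neutrophil genes summed to 47108, 47841, 44990.5 and 48471 CPM in the Retnlg-positive neutrophils of those groups. Neutrophils with an Rsad2 UMI had 45381.5, 39297, 32815 and 34963 CPM of that list.

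Mpo, Elane, Ctsg and Ms4a3, which mark granulocyte precursors, had no UMI in the Retnlg-positive neutrophils of any of the 4 libraries. The whole list of 9 azurophil granule genes summed to 58.8 CPM in KO anti-PD-1, 20.03 in KO IgG, 21.8 in WT anti-PD-1 and 16.8 in WT IgG lungs. Mki67, expressed by dividing cells, had 2, 1, 6 and 2 UMIs over all members of those groups. Of the eosinophil genes, Epx, Ear1, Il5ra, Alox15 and Prg3 were at 0 in the Retnlg-positive neutrophils of every library. The word circulating in the name could not be checked, because no blood was among the libraries.

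The threshold of 3 Retnlg UMIs did not fall in a gap. The median cell held 10 Retnlg UMIs in KO anti-PD-1, 13 in KO IgG, 12 in WT anti-PD-1 and 12 in WT IgG lungs, and the highest cell held 322, 210, 200 and 202. Cells with exactly 3 UMIs numbered 87 in KO anti-PD-1, 75 in KO IgG, 41 in WT anti-PD-1 and 41 in WT IgG lungs. Neutrophils just outside, with 2 UMIs, numbered 90, 109, 44 and 56 in those groups. Mmp8, the neutrophil collagenase, had 209, 246, 162 and 150.3 CPM in the cells with 3 UMIs, against 95.2, 152, 63.5 and 49.5 CPM in the cells with 2. Wfdc21 differed less across the threshold. It had 2265, 2377, 1296 and 1152 CPM at 3 UMIs, against 2039, 2499.6, 719 and 1362 CPM at 2. Stfa2l1 had 785, 1666, 555 and 1302 CPM at 3 UMIs, against 1074, 1128, 1058 and 879 CPM at 2. It was lower at 3 UMIs in both anti-PD-1 libraries and higher in both IgG libraries.

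The remaining neutrophils were divided by the other conditions of the rule. There were 794 with a Siglecf UMI, 280 with an Rsad2 UMI and 3608 with fewer than 3 Retnlg UMIs. Rsad2 encodes viperin, an antiviral protein induced by interferon. The cells set aside were not all poor in Retnlg, since some Siglecf-positive and many Rsad2-positive neutrophils held at least 3 Retnlg UMIs. Mmp8 had 573 CPM in KO anti-PD-1, 441 in KO IgG, 441 in WT anti-PD-1 and 424 in WT IgG lungs, against 57.5, 25.9, 18.6 and 32.5 CPM in Siglecf-positive neutrophils. Retnlg-low neutrophils had 67.8, 48.7, 22.2 and 33.6 CPM of Mmp8, and T cells had at most 7.54 CPM. Rsad2-positive neutrophils had 411, 556, 126 and 158 CPM, so in the KO libraries they did not lie clearly below the Retnlg-positive cells. In log2 units the difference from Siglecf-positive neutrophils was 3.32, 4.09, 4.57 and 3.70, and that from Retnlg-low neutrophils was 3.08, 3.18, 4.31 and 3.66.

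Ly6g, the antigen by which mouse neutrophils are stained, had 135 CPM in KO anti-PD-1, 85.1 in KO IgG, 94.4 in WT anti-PD-1 and 72.4 in WT IgG lungs, against 4.07, 11.3, 16.4 and 14.3 CPM in Retnlg-low neutrophils. Slpi, a secreted inhibitor of serine proteases, had 5358, 5566, 5741 and 5969 CPM, against 969, 809, 714 and 646 CPM in Siglecf-positive neutrophils. Rdh12, a retinal reductase, had 301, 302, 316 and 269 CPM, against 41.1, 35.6, 22.3 and 34.9 CPM in Siglecf-positive neutrophils. Against Siglecf-positive neutrophils, 126 of 3572 measured genes were at least 2-fold higher in all 4 libraries and 288 were at least 2-fold lower. Against Retnlg-low neutrophils the counts were 74 and 271 of 4942 genes, and against Rsad2-positive neutrophils 4 and 21 of 2846. These are descriptions, since the rule that separated the sets read counts of the same cells.

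Ccl3, a chemokine of inflamed myeloid cells, had 271 CPM in KO anti-PD-1, 398 in KO IgG, 156 in WT anti-PD-1 and 165 in WT IgG lungs. Siglecf-positive neutrophils had 1231.5, 2145, 1849 and 1722 CPM of Ccl3, and Retnlg-low neutrophils had 1129, 1835, 1428 and 1783 CPM. T cells had 319, 108, 165 and 162 CPM of Ccl3, and the Retnlg-positive level was well above that of T cells in KO IgG lungs. Cxcl2, which attracts neutrophils, was abundant throughout, with 11116, 16106, 9332 and 12921 CPM in Retnlg-positive neutrophils, against 15754, 20904, 15384 and 18095 CPM in Retnlg-low ones. Ltc4s, the leukotriene C4 synthase, had 55.9, 40.1, 50.8 and 53.9 CPM, against 616, 861, 799.9 and 820.4 CPM in Siglecf-positive neutrophils. Adam28, Prss2, Adamdec1 and Scimp were also among the 10 genes furthest below Siglecf-positive neutrophils. Against Rsad2-positive neutrophils the genes furthest below were interferon targets. Ifit1, an antiviral protein, had 8.60, 6.01, 12.7 and 1.68 CPM, against 286, 444, 205 and 195 CPM in Rsad2-positive neutrophils.

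**Figure D1:**
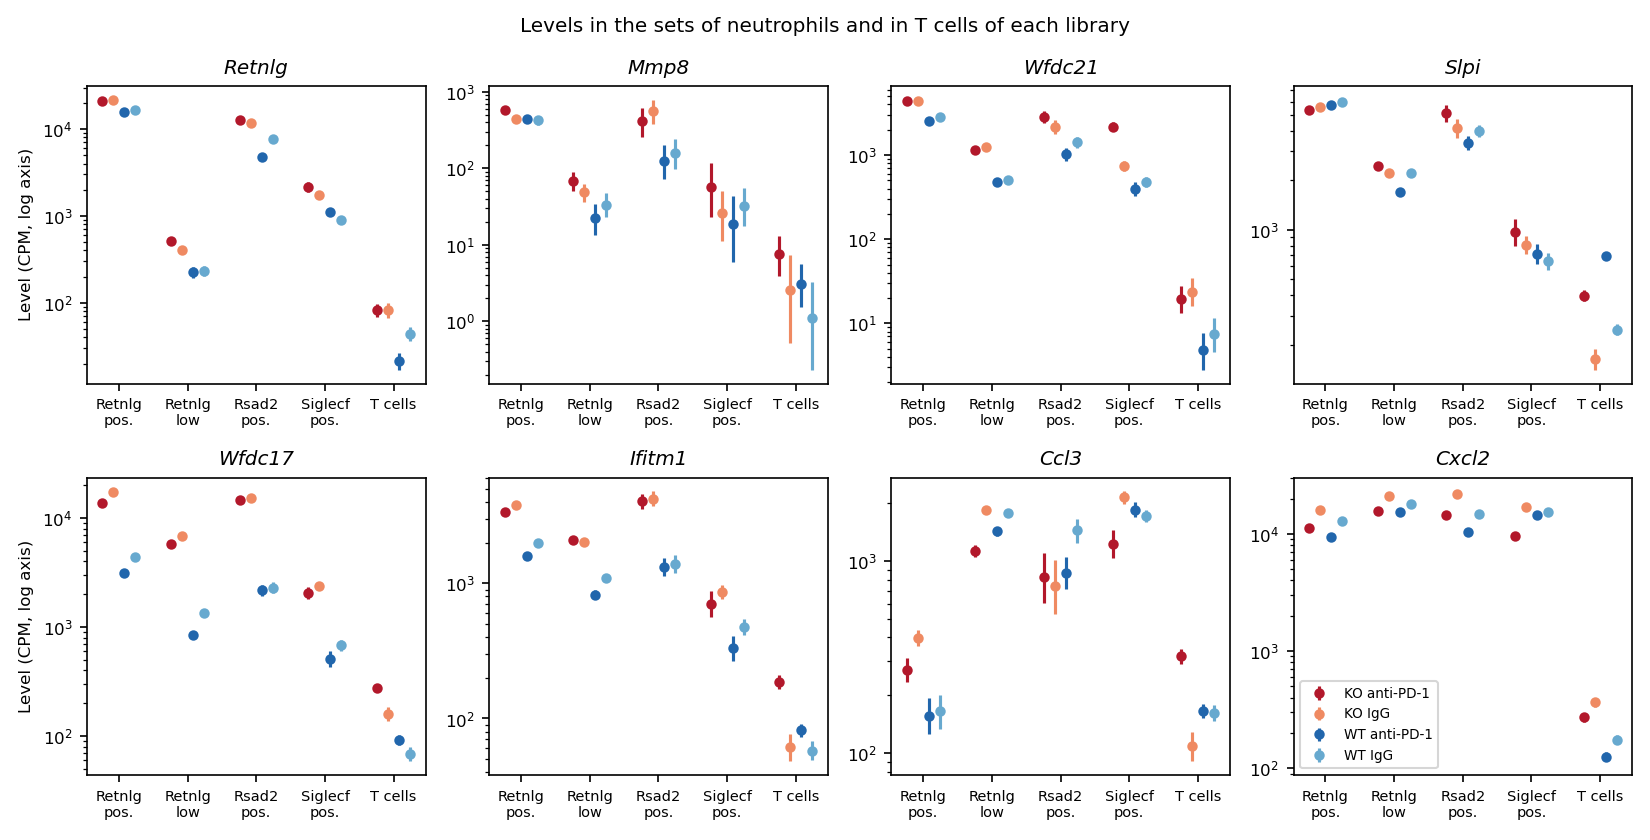
Levels in CPM (log axis) of marker genes in Retnlg-positive, Retnlg-low, Rsad2-positive and Siglecf-positive neutrophils and in T cells, 1 panel per gene and 1 point per library in the order KO anti-PD-1, KO IgG, WT anti-PD-1 and WT IgG, with 95% Poisson intervals as bars. Mmp8 lies between 424 and 573 CPM in the Retnlg-positive cells and between 18.6 and 57.5 CPM in the Siglecf-positive cells.

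The first question of the design concerns the lungs of mice whose tumour cells lacked Asf1a. Retnlg-positive neutrophils made up 12.3% of cells in KO anti-PD-1 lungs (Clopper-Pearson interval 11.4 to 13.2), 14.6% in KO IgG lungs (13.7 to 15.5), 6.60% in WT anti-PD-1 lungs (6.001 to 7.25) and 6.997% in WT IgG lungs (6.35 to 7.69). Both KO libraries lay above both WT libraries. The share was 2.08-fold higher in KO IgG than in WT IgG lungs (interval 1.85 to 2.35) and 1.86-fold higher in KO anti-PD-1 than in WT anti-PD-1 lungs (1.64 to 2.10). The 2 genotype ratios rest on different libraries. With anti-PD-1, the share was 0.944 times that of IgG in WT lungs (0.821 to 1.09) and 0.843 times in KO lungs (0.762 to 0.932).

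All neutrophils were also more frequent in the KO libraries, with 1741 in KO anti-PD-1, 2458 in KO IgG, 1375 in WT anti-PD-1 and 1499 in WT IgG lungs. Within neutrophils, the Retnlg-positive share was 40.0% in KO anti-PD-1 (37.7 to 42.4), 35.7% in KO IgG (33.8 to 37.6), 30.2% in WT anti-PD-1 (27.8 to 32.7) and 26.8% in WT IgG lungs (24.6 to 29.1). The ratio of that share was 1.33 for KO over WT with IgG (1.18 to 1.501) and 1.33 with anti-PD-1 (1.17 to 1.501). It was 1.13 for anti-PD-1 over IgG in WT lungs (0.979 to 1.29) and 1.12 in KO lungs (1.01 to 1.24). Thinned to 500 UMIs, the share of cells was 11.5% in KO anti-PD-1, 13.05% in KO IgG, 5.98% in WT anti-PD-1 and 6.53% in WT IgG lungs. The thinned share of neutrophils was 36.2%, 32.1%, 26.4% and 24.6% in that order. The order of the 4 libraries was the same at equal depth. In a share of a digested and sorted suspension, more neutrophils and fewer other cells cannot be told apart.

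**Figure D2:**
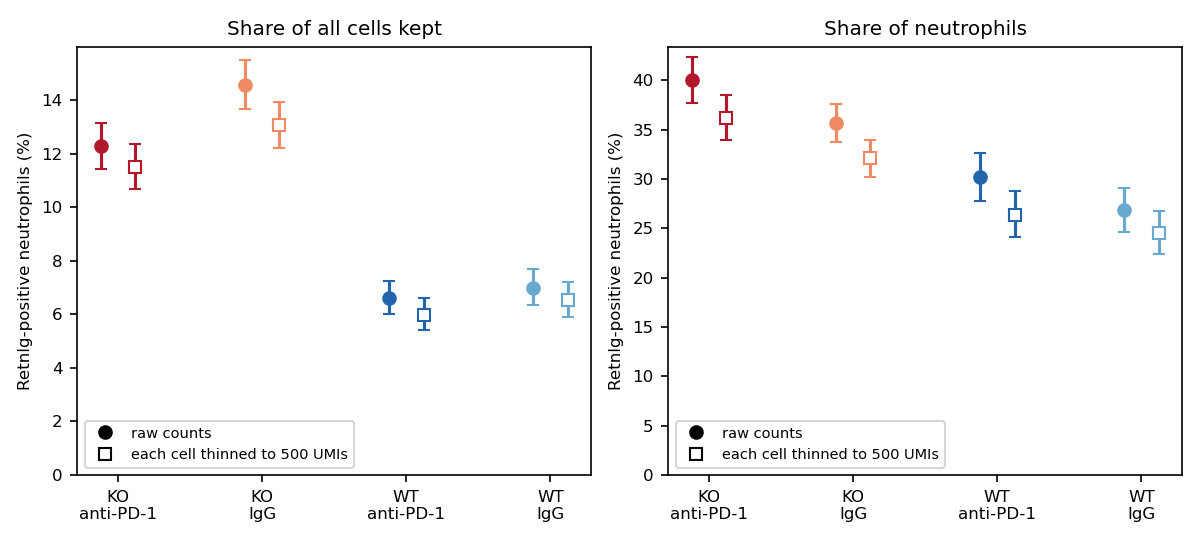
Retnlg-positive neutrophils as a percent of all cells kept and as a percent of neutrophils, by library, at full depth and thinned to 500 UMIs per cell, with 95% Clopper-Pearson intervals as bars. Both KO libraries lie above both WT libraries in each panel, at 12.3% and 14.6% of cells against 6.60% and 6.997% at full depth.

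Shallow cells were not equal among the libraries. Of the Retnlg-positive neutrophils, 28.6% had fewer than 700 UMIs in KO anti-PD-1, 11.2% in KO IgG, 3.37% in WT anti-PD-1 and 1.24% in WT IgG lungs. With only cells of at least 700 UMIs, the KO over WT ratio of the share of cells was 1.58 with anti-PD-1. Mitochondrial genes took 1.07%, 0.904%, 0.795% and 0.627% of the UMIs in those groups, and the 6 genes of the neutrophil rule took 15.4%, 16.04%, 17.4% and 19.6%. RNA of other cells moved with the groups too. A list of NK cell markers summed to 787 CPM in KO anti-PD-1, 307 in KO IgG, 292 in WT anti-PD-1 and 158 in WT IgG neutrophils. The macrophage list summed to 2023, 1111, 824 and 685 CPM, and the list of epithelial and tumour markers to 616, 231, 219.6 and 199 CPM, with Cldn4 and Cldn7 at 0. The B cell list summed to 2463, 2545, 3123 and 3859 CPM, with Pax5 at 0, and the T cell list of 10 genes to 255, 111, 161 and 123 CPM. Their part in the differences below was not tested.

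Gene levels were compared over 2554 genes with at least 100 UMIs in the members of all libraries together, leaving out the genes of the rule. A gene was counted as higher or lower from a 1.5-fold difference on, by size alone. In KO IgG against WT IgG lungs, 212 genes (8.3%) were higher and 108 (4.23%) lower. In KO anti-PD-1 against WT anti-PD-1 lungs, 211 (8.26%) were higher and 230 (9.01%) lower. Of these, 60 genes were higher in both genotype comparisons, which is 28.3% and 28.4% of the 2 counts, and 10 genes were higher in the first and lower in the second. For 32 genes the KO level was lower in both, which is 29.6% and 13.9% of the counts. The median log2 ratio over all genes was 0.03 with IgG and 0.01 with anti-PD-1.

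Wfdc17 stood out among the abundant genes. It encodes a small secreted WAP-domain protein that is known from activated macrophages of mice. It had 13664 CPM in KO anti-PD-1, 17421 in KO IgG, 3150.0 in WT anti-PD-1 and 4418 in WT IgG neutrophils. The level was 3.94-fold higher in KO IgG than in WT IgG (log2 1.98, interval 1.92 to 2.04) and 4.34-fold higher in KO anti-PD-1 than in WT anti-PD-1 (log2 2.12, 2.04 to 2.19). Thinned to 500 UMIs, 82.4% of members held a Wfdc17 UMI in KO anti-PD-1, 89.7% in KO IgG, 47.5% in WT anti-PD-1 and 57.0% in WT IgG lungs. In T cells, which should lack the gene, those shares were 7.53%, 6.87%, 2.79% and 2.42%. At full depth the shares were 87.7%, 92.5%, 60.5% and 70.1% of members and 21.1%, 21.8%, 9.86% and 9.59% of T cells.

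The Wfdc17 difference was not particular to the Retnlg-positive cells. The log2 ratio of KO IgG over WT IgG was 1.82 in Siglecf-positive, 2.74 in Rsad2-positive and 2.37 in Retnlg-low neutrophils. The ratio of KO anti-PD-1 over WT anti-PD-1 was 1.99, 2.75 and 2.76 in those sets. In T cells the ratios were 1.22 and 1.59, at levels of 276 CPM in KO anti-PD-1, 159 in KO IgG, 91.6 in WT anti-PD-1 and 67.9 in WT IgG lungs. Wfdc17 and Wfdc21 lie within 48.6 kb on chromosome 11, at 83704056 to 83706269 and 83746940 to 83752646 in the RefSeq annotation of GRCm38.p6. Wfdc21 was also higher in the KO libraries, with log2 ratios of 0.64 with IgG (0.56 to 0.72) and 0.77 with anti-PD-1 (0.68 to 0.86). In Retnlg-low neutrophils the Wfdc21 ratios were 1.31 and 1.26. At 500 UMIs, 73.6%, 73.7%, 53.5% and 60.2% of members held a Wfdc21 UMI in KO anti-PD-1, KO IgG, WT anti-PD-1 and WT IgG lungs, against at most 1.31% of T cells.

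Other genes higher in both KO libraries were less abundant. Ifitm1, an interferon-induced membrane protein, had 3370.5 CPM in KO anti-PD-1, 3820.1 in KO IgG, 1605.8 in WT anti-PD-1 and 1988 in WT IgG neutrophils. Its log2 ratio was 0.94 with IgG (0.85 to 1.04) and 1.07 with anti-PD-1 (0.96 to 1.18), and at 500 UMIs it was found in 60.0%, 67.7%, 40.0% and 42.0% of members. Igfbp6, which binds insulin-like growth factors, had 175, 202, 52.6 and 75.8 CPM in those groups, with log2 ratios of 1.42 and 1.73. Both genes were higher in KO than in WT with each antibody, with no overlap of the 2 KO and the 2 WT values. In Retnlg-low neutrophils the ratios with IgG and anti-PD-1 were 0.88 and 1.33 for Ifitm1 and 0.59 and 1.29 for Igfbp6. Prdx1, a peroxiredoxin that removes hydrogen peroxide, had 284, 224, 119.8 and 96.0 CPM, with log2 ratios of 1.23 and 1.25. Prdx1 ratios were 0.54 and 0.46 in Retnlg-low neutrophils and 0.50 and 0.43 in T cells. Fcgr2b, the inhibitory receptor for IgG, had 123, 91.1, 49.0 and 45.5 CPM, with log2 ratios of 1.00 and 1.33.

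Some other genes rested on few cells or were high elsewhere. Hbb-bs, a globin of red blood cells, had 209 CPM in KO anti-PD-1, 152 in KO IgG, 274 in WT anti-PD-1 and 1.68 in WT IgG neutrophils, and 1 cell held 100%, 96.1% and 94.7% of its UMIs in the first 3 of these. Spp1, osteopontin, had 369.9 CPM in KO anti-PD-1, 325 in KO IgG, 76.2 in WT anti-PD-1 and 80.8 in WT IgG neutrophils. A single cell held 58.9% of the Spp1 UMIs in KO anti-PD-1 and 41.4% in KO IgG. Without the highest cell of each library its log2 ratios were 1.39 with IgG and 1.10 with anti-PD-1, against 2.01 and 2.28 with it. Gpnmb, a glycoprotein of macrophages, had 78.9, 124, 27.2 and 32.0 CPM, and 1 cell held 62.1% of its UMIs in KO IgG. Chil3, a chitinase-like protein of myeloid cells, had 943 CPM in 147 cells of KO anti-PD-1, 227 CPM in 83 cells of KO IgG, 149 CPM in 26 cells of WT anti-PD-1 and 80.8 CPM in 17 cells of WT IgG. T cells held 176, 79.3, 39.5 and 17.6 CPM of Chil3 in the same order of groups. The Chil3 log2 ratios of KO over WT were 1.49 with IgG and 2.66 with anti-PD-1, against 2.46 and 2.90 in Retnlg-low neutrophils. Gzma, a granzyme of cytotoxic lymphocytes, had 384, 136, 47.2 and 40.4 CPM, and T cells had 403, 75.8, 229 and 146 CPM. Bcl2l1, the survival factor BCL-XL, had 53.0, 70.1, 32.7 and 20.2 CPM, with log2 ratios of 1.79 with IgG (0.90 to 2.81) and 0.70 with anti-PD-1 (-0.15 to 1.60).

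Genes lower in both KO libraries included chemokine and antibody genes. Cxcl10, an interferon-induced chemokine for T cells, had 27.2 CPM in KO anti-PD-1, 13.02 in KO IgG, 96.2 in WT anti-PD-1 and 80.8 in WT IgG neutrophils. These were 19, 13, 53 and 48 UMIs in 10, 8, 12 and 15 cells, and the log2 ratios were -2.63 with IgG and -1.82 with anti-PD-1. Few of the Retnlg-positive cells carried Cxcl10 in any library. In Retnlg-low neutrophils the Cxcl10 ratios were -1.12 with IgG and -1.51 with anti-PD-1. Ighg1, an antibody heavy chain of plasma cells, had 116, 86.1, 283 and 184 CPM, with log2 ratios of -1.09 and -1.29. Ighg2b, of the same kind, had 172, 113, 283 and 424 CPM, with ratios of -1.91 and -0.72. Trpm2, a calcium channel opened under oxidative stress, had 67.4, 90.1, 125 and 153 CPM, with ratios of -0.77 and -0.89. Cwc25, a splicing factor, had 80.3, 71.1, 152 and 148 CPM, with ratios of -1.06 and -0.92. Ptgs2, the prostaglandin-forming cyclooxygenase 2, was past 1.5-fold with anti-PD-1 only. It had 1121 CPM in KO anti-PD-1, 1638 in KO IgG, 2105 in WT anti-PD-1 and 1975 in WT IgG neutrophils, and the difference between its ratios of -0.27 and -0.91 was not tested.

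**Figure D3:**
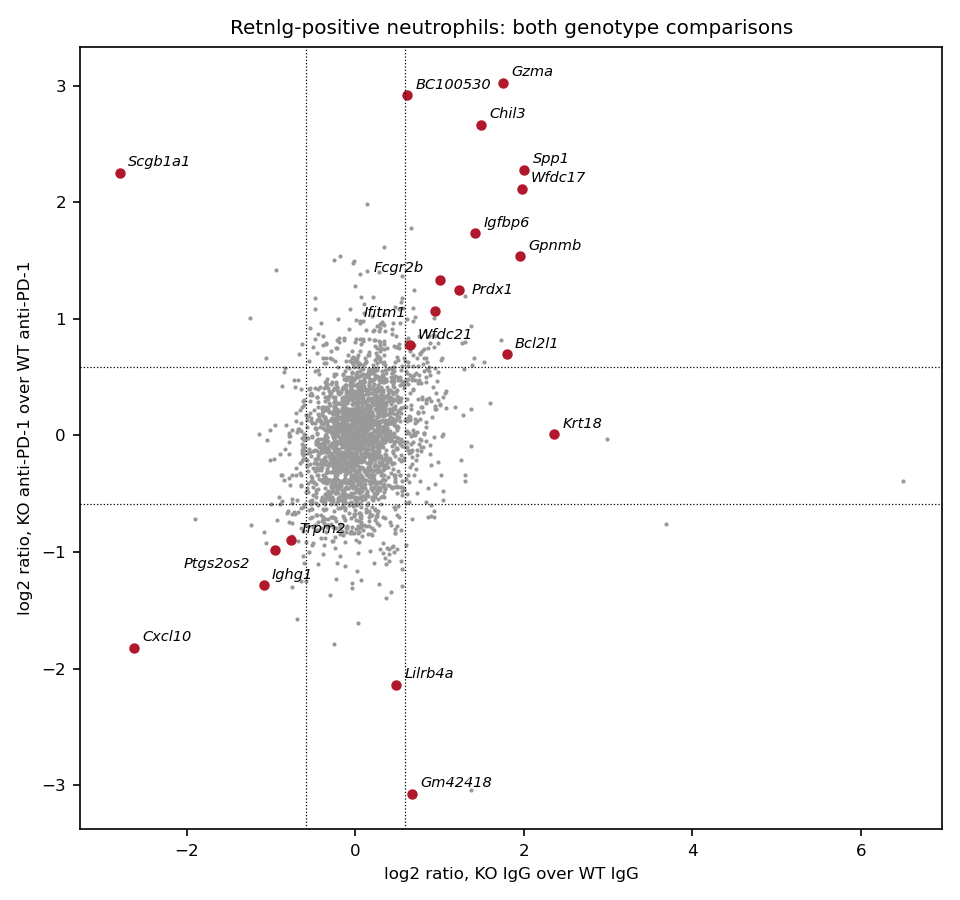
Log2 ratio of KO IgG over WT IgG (horizontal axis) against log2 ratio of KO anti-PD-1 over WT anti-PD-1 (vertical axis) in Retnlg-positive neutrophils, 1 point per gene of 2554, with 20 genes labelled in red and dotted lines at a 1.5-fold difference. Wfdc17 lies at 1.98 and 2.12, and Cxcl10 at -2.63 and -1.82.

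Stefins, the small intracellular inhibitors of cysteine cathepsins, form a cluster of near-identical genes on chromosome 16. The 5 stefin A genes counted here lie within 299 kb there. The bases before the start of each are shown because these genes share both sequence and expression in neutrophils. They are the 100 bases before the RefSeq start in GRCm38.p6, read on the strand of the gene, at chr16:36277048-36277147 for Stfa1 (plus strand), chr16:36408364-36408463 for Stfa2 (minus), chr16:36156711-36156810 for Stfa2l1 (plus), chr16:36455393-36455492 for Stfa3 (minus) and chr16:36184112-36184211 for Cstdc4 (plus), which the files call Gm5483. Capitals mark GAGGAG and TTTAAA, letters chosen after reading the sequences.
Stfa1: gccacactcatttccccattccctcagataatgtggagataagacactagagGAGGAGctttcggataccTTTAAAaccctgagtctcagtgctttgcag
Stfa2: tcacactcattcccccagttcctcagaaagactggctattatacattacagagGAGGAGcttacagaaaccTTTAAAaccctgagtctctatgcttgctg
Stfa2l1: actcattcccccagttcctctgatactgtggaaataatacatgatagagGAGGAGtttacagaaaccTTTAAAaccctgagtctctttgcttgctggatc
Stfa3: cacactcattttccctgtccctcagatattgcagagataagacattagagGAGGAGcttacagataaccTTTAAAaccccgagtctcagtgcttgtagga
Cstdc4: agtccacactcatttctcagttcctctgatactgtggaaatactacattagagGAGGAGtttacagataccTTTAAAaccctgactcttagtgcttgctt
The 5 sequences were identical at 80.6% to 94.5% of aligned bases. The marked GAGGAG stood 42 to 51 bases before the start, and in each sequence an unmarked copy farther from the start overlapped it. TTTAAA stood 24 to 33 bases before the start. On the strand of the gene, 0.241% of 32844 RefSeq windows of this length held both words. TTTAAA, which reads the same on both strands, was in 4.39% of windows, and GAGGAG in 7.69% on the gene's strand and in 14.6% on either strand. A match of letters is not a shown binding site.

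Stefin levels were compared with the caution that reads of near-identical genes may be split between them in counting. Stfa2l1 had 1554 CPM in KO anti-PD-1, 1776 in KO IgG, 999.8 in WT anti-PD-1 and 1629.9 in WT IgG neutrophils. The lowest value was that of WT anti-PD-1, so the log2 ratio was 0.64 for KO over WT with anti-PD-1 (0.49 to 0.79) and 0.12 with IgG (0.01 to 0.24). Gm5483 had 2719.6, 3031, 1702 and 2145 CPM, with ratios of 0.50 with IgG and 0.68 with anti-PD-1. Stfa1 had 417, 313, 205 and 273 CPM, with ratios of 0.20 and 1.02, and 0.37 and 0.37 without the highest cell of each library. Stfa2 had 88.9, 68.1, 29.0 and 53.9 CPM in 22, 33, 5 and 11 cells, with ratios of 0.34 and 1.61. Stfa3 had 74.5, 30.0, 32.7 and 28.6 CPM, and its ratio of 1.19 with anti-PD-1 was 0.11 without the highest cell. BC100530, a stefin A-like gene, had 411, 170.3, 54.4 and 111 CPM, and 1 cell held 57.8% of its UMIs in KO anti-PD-1. Stefin differences were not particular to the Retnlg-positive cells. In Retnlg-low neutrophils the KO over WT ratios with IgG were 1.07 for Stfa2l1, 1.82 for Gm5483 and 2.87 for Stfa1, larger than here. With anti-PD-1 they were 0.70, 0.69 and 0.21.

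Over the list of stefins and related inhibitors, 3 of 11 measured genes were at least 1.5-fold higher in KO IgG than in WT IgG neutrophils and none lower, with a median log2 ratio of 0.20. Of all genes, 8.3% were higher and 4.23% lower in that comparison. With median-of-ratios scaling only 1 of 11 was higher. With anti-PD-1, 8 of 11 were higher and none lower, with a median of 0.77, where 8.26% of all genes were higher and 9.01% lower. Among these 8, Stfa1 and Stfa3 fell short of 1.5-fold without the highest cell. Stfa2 was found in few cells, and 1 cell held most BC100530 UMIs in KO anti-PD-1. In WT lungs, anti-PD-1 against IgG gave none higher and 3 of 11 lower, with a median of -0.33, and in KO lungs 2 higher and none lower, with a median of 0.27. Those 2 were Stfa3 and BC100530, and the ratio of each changed sign under an alternative setting. Of all genes, 8.22% were higher and 2.51% lower in WT lungs, and 7.24% and 4.54% in KO lungs. The median for KO IgG over WT IgG turned to -0.07 in thinned counts. That for KO anti-PD-1 over KO IgG turned to -0.08 in thinned counts, -0.06 without the highest cell of each library and -0.05 as a mean over cells. The median with anti-PD-1 was 0.58 to 0.84 under every alternative setting run. Slpi, on the same list, differed by -0.10 with each antibody, and the secreted cystatin Cst3 by -0.36 and -0.14.

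Granule genes differed little as a list. Of 15 measured genes of specific and gelatinase granules, 2 were higher and none lower in KO IgG than in WT IgG, where 8.3% and 4.23% of all genes were, with a median log2 ratio of 0.21. With anti-PD-1, 3 were higher and 1 lower, where 8.26% and 9.01% of all genes were, with a median of 0.18. Pglyrp1, which binds bacterial peptidoglycan, had 2173, 2188, 2118 and 2212 CPM in KO anti-PD-1, KO IgG, WT anti-PD-1 and WT IgG neutrophils. Mmp9, the gelatinase, had 723, 726, 885 and 966 CPM, and Lcn2, which binds bacterial iron carriers, had 991, 952, 722 and 982 CPM. Ngp had 691, 415, 446 and 231 CPM, and Camp, the cathelicidin, had 419, 309, 846 and 234 CPM in 12, 9, 10 and 2 cells. A single cell held between 49% and 85% of the Camp UMIs in each library, and the sign of its KO ratio with anti-PD-1 turned without that cell (-1.01 with it, 0.54 without it). Cd177, a surface partner of proteinase 3, had 112, 76.1, 49.0 and 65.7 CPM, with KO over WT ratios of 0.21 with IgG and 1.19 with anti-PD-1.

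Genes of the circulating neutrophil programme were compared next. Over all genes, 8.3% were higher and 4.23% lower in KO IgG than in WT IgG. Of 26 measured, 2 were higher and 1 lower in KO IgG than in WT IgG, with a median log2 ratio of 0.06, and 7 were higher and none lower in KO anti-PD-1 than in WT anti-PD-1, where 8.26% and 9.01% of all genes were, with a median of 0.23. Il1r2, the decoy receptor for interleukin 1, had 1967 CPM in KO anti-PD-1, 1648 in KO IgG, 1172 in WT anti-PD-1 and 1276 in WT IgG neutrophils, with ratios of 0.37 and 0.75. Lrg1, a secreted leucine-rich glycoprotein, had 962, 1087, 569.8 and 773 CPM, with ratios of 0.49 and 0.76. Ifitm6, a myeloid relative of Ifitm1, had 728, 489, 381 and 411 CPM, with ratios of 0.25 and 0.93. For all 3 genes, both KO values lay above both WT values. Some receptors were of this kind as well. Cd14, the co-receptor for bacterial lipopolysaccharide, had 2678, 2331, 1469.8 and 1733 CPM, with ratios of 0.43 and 0.87. Of 23 adhesion and migration receptors, none passed 1.5-fold with IgG and only Il1r2 did with anti-PD-1. Of 7 NADPH oxidase genes, none passed in either genotype comparison. Of 21 pattern and Fc receptors, 2 were higher and 1 lower with IgG, and 3 were higher and 1 lower with anti-PD-1.

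Genes known from tumour-associated neutrophils were low in these cells, yet part of them was higher in KO lungs. Of 17 measured, 6 were higher and none lower in KO IgG than in WT IgG, with a median of 0.18, and 5 were higher and 1 lower with anti-PD-1, with a median of 0.24. The 1.5-fold shares over all genes were 8.3% higher and 4.23% lower with IgG, and 8.26% and 9.01% with anti-PD-1. Spp1, Gpnmb, Ctsb and Ccl3 were counted as higher in both comparisons. As given above, a single cell held much of the Spp1 UMIs in each KO library and of the Gpnmb UMIs in KO IgG. Ccl3 had log2 ratios of 1.27 (0.95 to 1.60) and 0.80 (0.42 to 1.18). At 500 UMIs, 4.82% of members held a Ccl3 UMI in WT anti-PD-1 lungs and 4.96% of T cells did, so this share was not above that of T cells. Whether T cells made Ccl3 themselves was not tested. Ctsb, a cathepsin, had 178, 189, 105 and 99.3 CPM in KO anti-PD-1, KO IgG, WT anti-PD-1 and WT IgG neutrophils, and its thinned share in members was below that in T cells. Xbp1, a transcription factor of the unfolded protein response, had 329.7, 479, 279 and 227 CPM, with ratios of 1.07 with IgG and 0.24 with anti-PD-1. Cd274, the PD-1 ligand PD-L1, had 40.1, 53.1, 69.0 and 52.2 CPM, with ratios of 0.02 and -0.78 (-1.54 to -0.04).

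Inflammatory and metabolic genes gave mixed values. Over all genes, 8.3% were higher and 4.23% lower in KO than in WT with IgG, and 8.26% and 9.01% with anti-PD-1. Of 14 cytokine and chemokine genes, 3 were higher and none lower in each genotype comparison. Il1b had 13075, 16378, 15265 and 17041 CPM in KO anti-PD-1, KO IgG, WT anti-PD-1 and WT IgG neutrophils. Osm, oncostatin M, had 1412, 2156, 1190.3 and 1261 CPM, with ratios of 0.77 with IgG and 0.25 with anti-PD-1. Fabp5, a fatty acid binding protein, had 328, 433, 207 and 212 CPM, with ratios of 1.03 and 0.67. Of 18 hypoxia and glycolysis genes, 1 was higher with IgG (Bnip3) and 5 were higher and 1 lower with anti-PD-1, with medians of -0.02 and 0.31. Hif1a, the oxygen-sensing transcription factor, had 181, 161, 85.3 and 113 CPM, with ratios of 0.52 and 1.08. Mif, a cytokine of stressed cells, had 218, 156, 78.0 and 160.0 CPM, with ratios of -0.03 and 1.48. Alox5, the lipoxygenase of leukotriene synthesis, was lower, with ratios of -0.80 (-1.33 to -0.26) and -0.65 (-1.27 to -0.03). Immediate-early and heat-shock genes (22 measured, none higher, 1 and 3 lower) and NF-kB targets (15 measured, 1 higher with IgG, 2 lower with anti-PD-1) had medians between -0.14 and -0.03. Among 16 suppressive neutrophil genes, 3 were higher and 1 lower with IgG, and 1 was higher and 3 lower with anti-PD-1. Of 13 survival and apoptosis genes, 1 was higher with IgG, and 1 was higher and 2 lower with anti-PD-1.

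Several interferon-gamma targets were lowest in the KO IgG library. Of 12 measured, 1 was higher and 5 lower in KO IgG than in WT IgG, where 8.3% and 4.23% of all genes were, with a median log2 ratio of -0.52 that stayed between -0.67 and -0.29 under the alternatives. In KO anti-PD-1 against WT anti-PD-1 neutrophils none was higher and 1 was lower, with a median of 0.03 that turned to between -0.02 and -0.01 under the other scalings. Of all genes, 8.26% were higher and 9.01% lower in that comparison. Irf1, the interferon-induced transcription factor, had 128 CPM in KO anti-PD-1, 63.1 in KO IgG, 147 in WT anti-PD-1 and 123 in WT IgG neutrophils. The KO IgG library was the low one of the 4. Gbp2, a guanylate-binding protein, had 61.6, 26.04, 58.1 and 50.5 CPM. Psmb8, a subunit of the immunoproteasome, had 218, 145, 221 and 217 CPM. For each of these 3 genes KO IgG was lowest and the other 3 libraries lay close together. Socs3, an inhibitor of cytokine signalling on the same list, went the other way, with 209, 329, 167 and 190.3 CPM. Of 12 measured type I interferon targets, 1 was higher and none lower with IgG, and none higher and 1 lower with anti-PD-1. Of 13 MHC class I genes, 1 was higher and 1 lower in each genotype comparison.

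**Figure D4:**
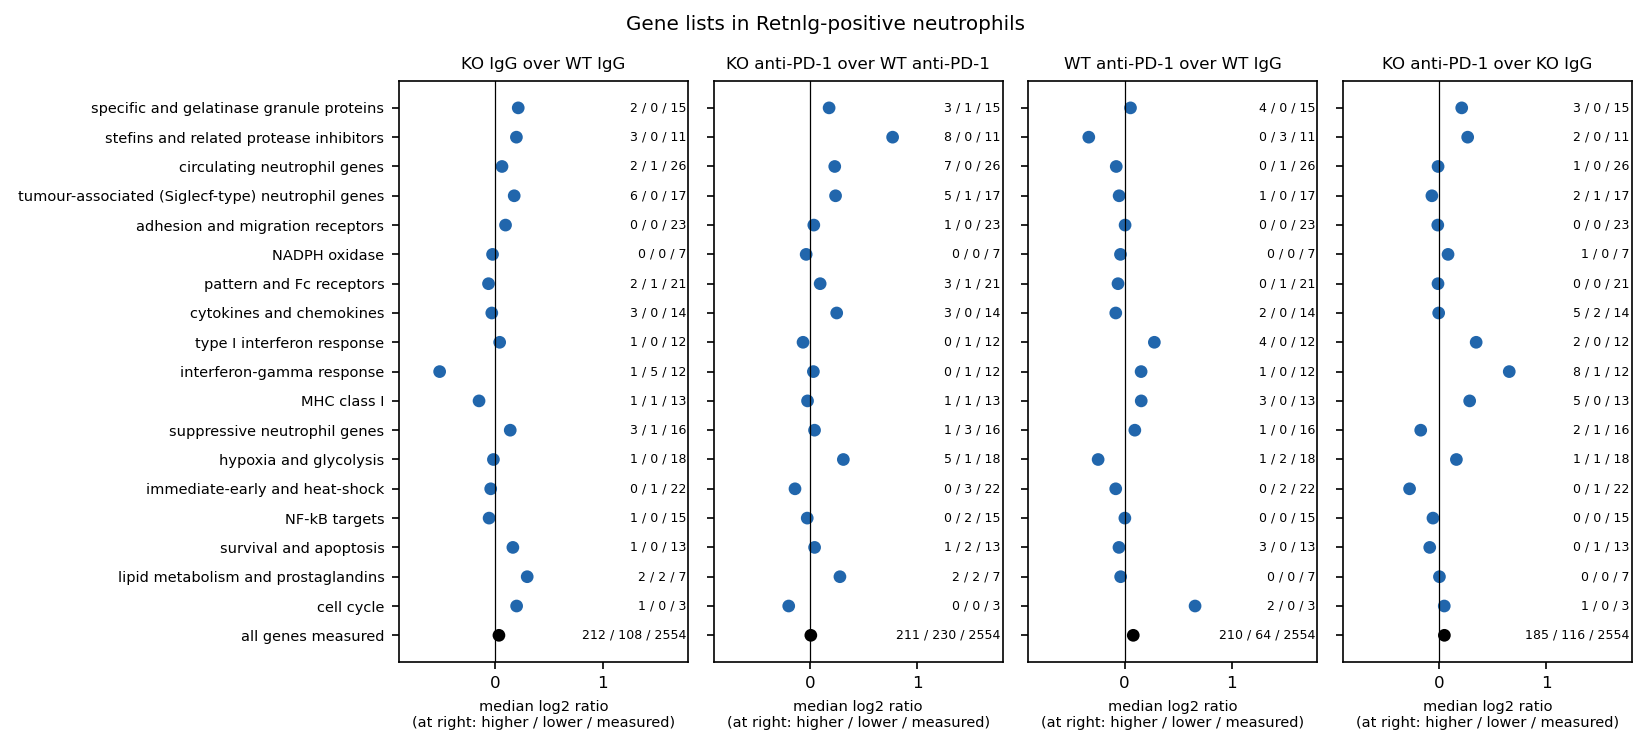
Median log2 ratio of the measured members of each gene list in Retnlg-positive neutrophils (points, blue), and of all 2554 genes (black), in 4 panels for KO IgG over WT IgG, KO anti-PD-1 over WT anti-PD-1, WT anti-PD-1 over WT IgG and KO anti-PD-1 over KO IgG, with the numbers of genes higher, lower and measured at the right. Interferon-gamma targets have a median of -0.52 in the first panel and 0.65 in the last, and stefins a median of 0.77 in the second.

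The second question is what anti-PD-1 went with. It was compared with IgG within each tumour genotype, and these comparisons share libraries with the genotype comparisons. In WT anti-PD-1 against WT IgG neutrophils, 210 genes (8.22%) passed 1.5-fold upward and 64 (2.51%) downward, with a median of 0.08 over all genes. In KO anti-PD-1 against KO IgG, 185 (7.24%) were higher and 116 (4.54%) lower, with a median of 0.05. These splits depended on scaling. With TMM scaling, which moved the ratios by -0.12 in WT and -0.14 in KO, the counts were 135 higher and 130 lower in WT and 100 higher and 250 lower in KO. With median-of-ratios scaling they were 135 and 130 in WT and 115 and 217 in KO. For 39 genes the level was higher with anti-PD-1 in both genotypes, which is 18.6% and 21.1% of the 2 counts, and 15 were higher in WT and lower in KO. The level was lower in both for 3 genes, Jun, Ppp1r35 and Smg1, which is 4.69% of the WT count and 2.59% of the KO count. These shares were near those over all genes, of which 4.54% were lower in KO and 2.51% in WT.

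Genes higher with anti-PD-1 in both genotypes included genes of cytotoxic lymphocytes. Ccl5, a chemokine of T and NK cells, had 810.0 CPM in KO anti-PD-1, 192 in KO IgG, 521 in WT anti-PD-1 and 194 in WT IgG neutrophils, in 303, 114, 174 and 102 cells. T cells of those libraries had 9008, 3521, 11504 and 4818 CPM of Ccl5. The log2 ratio in neutrophils was 2.07 in KO (1.84 to 2.32) and 1.43 in WT (1.11 to 1.75). Nkg7, a granule membrane protein of those lymphocytes, had 227, 74.1, 154 and 42.1 CPM, and Ms4a4b, a T cell surface protein, had 81.7, 20.03, 69.0 and 13.5 CPM. All of these genes stood far higher in T cells, and the part of T cell RNA in the neutrophil values was not tested. Ltf, the lactoferrin of specific granules, had 169, 86.1, 138 and 70.7 CPM in only 14, 10, 8 and 7 cells.

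Antigen presentation genes were among the rest. H2-K1, a classical MHC class I heavy chain, had 796 CPM in KO anti-PD-1, 491 in KO IgG, 840.1 in WT anti-PD-1 and 546 in WT IgG neutrophils. The ratios were 0.70 in KO (0.52 to 0.88) and 0.62 in WT (0.41 to 0.83), and both anti-PD-1 values lay above both IgG values. With TMM scaling its ratios were 0.55 in KO and 0.50 in WT, short of 1.5-fold. H2-Q7, a nonclassical class I chain, had 96.1, 35.1, 67.1 and 38.7 CPM, with ratios of 1.45 and 0.79. Tap1, a subunit of the peptide transporter, had 50.2, 29.0, 65.3 and 38.7 CPM, with ratios of 0.79 (0.04 to 1.55) and 0.75 (-0.04 to 1.58). Of 13 MHC class I genes, 5 were higher and none lower in KO lungs, with a median of 0.28, and 3 were higher and none lower in WT lungs, with a median of 0.16. Over all genes, 7.24% were higher in KO and 8.22% in WT lungs. With TMM or median-of-ratios scaling, 2 were higher in each genotype. Of 12 interferon-gamma targets, 8 were higher and 1 lower in KO lungs, where 7.24% and 4.54% of all genes were, with a median of 0.65 that stayed between 0.51 and 0.76 under the alternatives. With either of those scalings, 5 were higher and 2 lower in KO lungs. In WT lungs 1 was higher and none lower, with a median of 0.15. Tap1, Psmb8 and Psmb9 are on both this list and that of MHC class I and were higher in KO lungs, so those counts overlap. The difference between the genotypes was not tested. Irf1 had ratios of 1.02 in KO (0.53 to 1.505) and 0.26 in WT (-0.22 to 0.73). Of 12 type I interferon targets, 2 were higher in KO and 4 in WT lungs and none lower, with medians of 0.35 and 0.28. With either scaling these counts were 1 in KO and 2 in WT lungs. Isg15, a ubiquitin-like antiviral protein, had 624, 392, 613 and 537 CPM.

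Other lists were counted in the same way. Over all genes, 7.24% were higher and 4.54% lower in KO lungs, and 8.22% and 2.51% in WT lungs. Of 15 genes of specific and gelatinase granules, 3 were higher in KO and 4 in WT lungs and none lower. Those 4 were Ltf, Camp, Ngp and Chil3, and the WT ratios of Camp, Ngp and Chil3 changed sign in thinned counts. Of 26 circulating neutrophil genes 1 was higher in KO and 1 lower in WT lungs. Of 14 cytokine and chemokine genes, 5 were higher and 2 lower in KO lungs, and 2 were higher and none lower in WT lungs. With TMM scaling the counts of this list were 4 higher and 4 lower in KO lungs, and 1 higher and 2 lower in WT lungs.

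Few genes were lower with anti-PD-1 in both genotypes, and their number was near the share over all genes. Jun, a subunit of AP-1, had 55.9 CPM in KO anti-PD-1, 114 in KO IgG, 50.8 in WT anti-PD-1 and 84.2 in WT IgG neutrophils, with ratios of -1.03 in KO and -0.73 in WT. T cells had 47.8, 89.5, 63.7 and 70.5 CPM of Jun. Smg1, a kinase of nonsense-mediated decay, had 25.8, 72.1, 32.7 and 57.2 CPM, with ratios of -1.48 and -0.81. Cxcl3, which attracts neutrophils, had 347, 629, 234 and 350.2 CPM, with ratios of -0.86 in KO and -0.58 in WT, the second just short of 1.5-fold. With TMM scaling its ratios were -1.001 and -0.71, both past 1.5-fold. The related Cxcl2 had ratios of -0.53 and -0.47, and with TMM scaling -0.68 and -0.59, past 1.5-fold in both. Wfdc17 was also lower with anti-PD-1, by -0.35 in KO and -0.49 in WT, which is less than the genotype ratios above.

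A few genes set the KO anti-PD-1 library apart from the other 3. Gm42418, a gene model that overlaps a ribosomal RNA repeat, had 96.1 CPM in KO anti-PD-1, 1198 in KO IgG, 807.5 in WT anti-PD-1 and 753 in WT IgG neutrophils. T cells had 334, 1738, 1617 and 1799.96 CPM of Gm42418, so the library differed in that cell type as well. Scgb1a1, the secretoglobin of airway club cells, had 459, 14.0, 96.2 and 97.7 CPM in neutrophils, in 263, 12, 17 and 53 cells. T cells held 9927, 14.5, 45.9 and 63.7 CPM of Scgb1a1. Lilrb4a, an inhibitory receptor of myeloid cells, had 33.0, 153, 145 and 109 CPM, with a ratio of -2.14 for KO over WT with anti-PD-1 and -2.22 for anti-PD-1 over IgG in KO. Atrx, a chromatin remodeller, had 54.5, 145, 143 and 113 CPM. Both comparisons that hold this library include these genes among their counts.

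The Retnlg-positive cells varied among themselves. After thinning to 500 UMIs they were divided into cells with 0 to 2, 3 to 5 and at least 6 Retnlg UMIs, and 1340 genes were compared between the outer groups. These groups were made from Retnlg itself, so the values describe what went along with it. The cells with at least 6 UMIs numbered 388 in KO anti-PD-1, 501 in KO IgG, 178 in WT anti-PD-1 and 174 in WT IgG lungs, and those with 0 to 2 UMIs 112, 139, 108 and 105. Mmp8 had 624, 615, 652 and 540.2 CPM in the cells with at least 6 Retnlg UMIs, against 232, 101, 222 and 152 CPM in those with 0 to 2. The log2 ratios were 1.43, 2.61, 1.55 and 1.83, the same way in all 4 libraries. Rdh12 had 366, 423, 461 and 345 CPM, against 161, 101, 222 and 209.5 CPM. Wfdc21 had 5149, 5325, 3079 and 3195 CPM, against 3125, 3324, 1519 and 2000.0 CPM, with ratios of 0.72, 0.68, 1.02 and 0.68.

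The cells poorest in Retnlg held more of several genes of other leukocytes. H2-Eb1, an MHC class II chain of B cells and dendritic cells, had 186, 159.7, 124 and 138 CPM in the cells with at least 6 Retnlg UMIs, against 643, 374, 315 and 381 CPM in those with 0 to 2. Plac8, which is high in monocytes, had 263, 79.8, 146 and 149 CPM, against 732, 273, 444 and 286 CPM. Crip1, a small LIM protein, had 577, 267, 269.7 and 264 CPM, against 1143, 633, 574 and 609.5 CPM. Clec4n, the lectin dectin-2, had 97.9, 116, 56.2 and 69.0 CPM, against 339, 388, 259 and 152 CPM. Each of these was lower in the Retnlg-rich cells of all 4 libraries. The mitochondrial gene mt-Nd1 and the ribosomal protein gene Rpl13a went the same way. A Scrublet doublet score above 0.25 marked 14, 13, 5 and 0 of the members in KO anti-PD-1, KO IgG, WT anti-PD-1 and WT IgG lungs. Scores were not compared between the Retnlg groups, and the part of doublets was not tested.

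**Figure D5:**
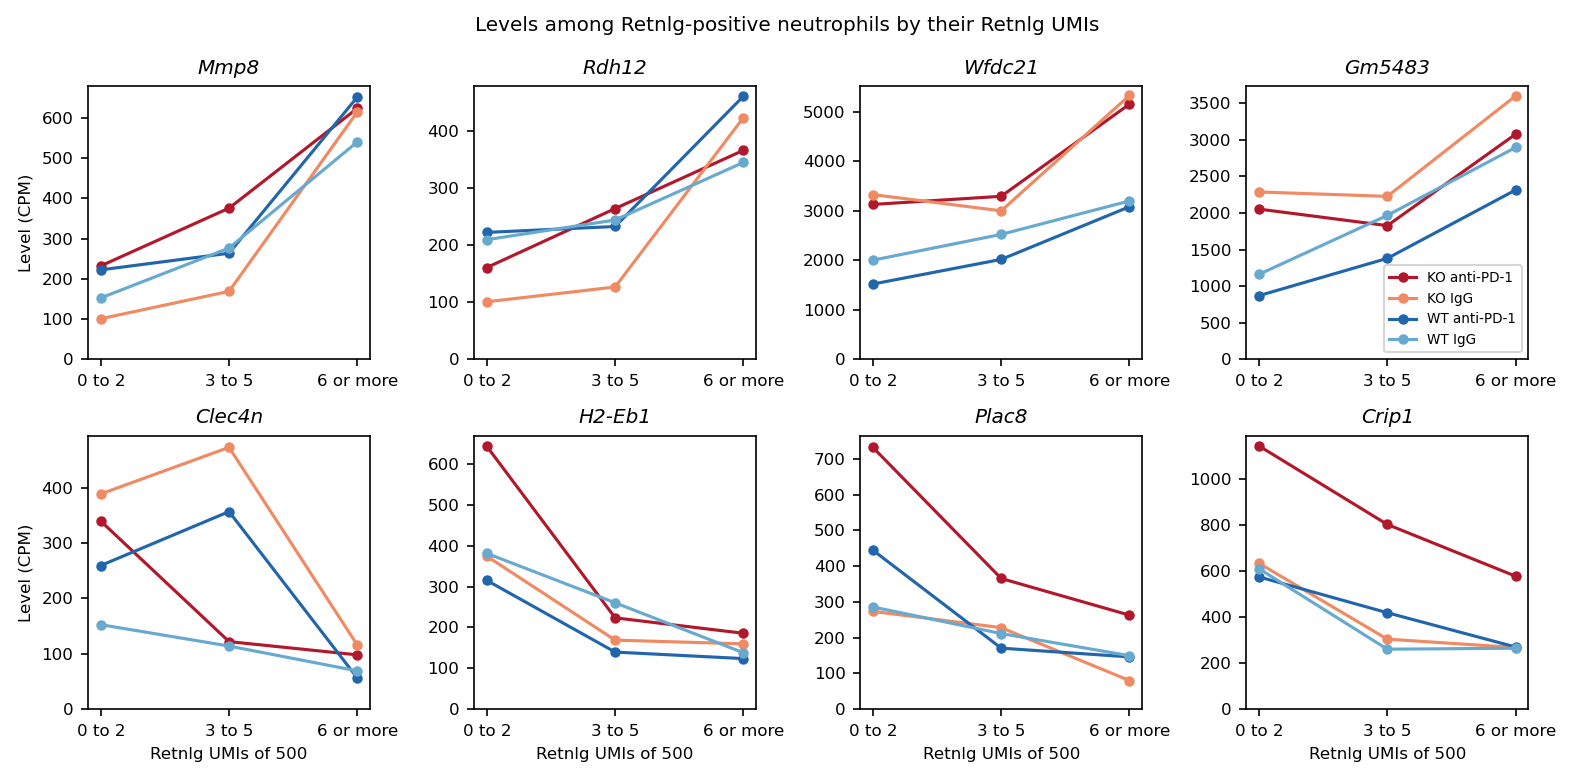
Levels in CPM (linear axis from 0) of 8 genes in Retnlg-positive neutrophils with 0 to 2, 3 to 5 and at least 6 Retnlg UMIs after thinning to 500 UMIs per cell, 1 line per library. Mmp8 lies between 540.2 and 652 CPM in the group with at least 6 UMIs and between 101 and 232 CPM in the group with 0 to 2.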

How the data were processed

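Whole-lung suspensions were profiled with the 10x Genomics 3′ v2 kit, 1 library per group, per the labels. The deposited values are whole-number UMI counts per gene and cell over 31053 gene identifiers, not normalised. Per the file headers they came from Cell Ranger 3.0.0. Cell Ranger, bcl2fastq and the human build hg19 are listed in the submitters' processing notes. All gene identifiers are those of mouse, so the build was not established, and positions come from RefSeq GRCm38.p6. Barcodes had at least 500 UMIs in every library, so empty droplets were not analysed here. Strand use in counting and any doublet removal before deposit: not given in the sources used here.

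Cells were filtered and chosen with Python 3.11.15, numpy 2.4.6, scipy 1.17.1 and pandas 2.3.3. No cell was removed as a doublet. Scrublet (scanpy 1.11.5) at its automatic threshold called 0, 3, 98 and 75 cells in KO anti-PD-1, KO IgG, WT anti-PD-1 and WT IgG, which is too few to have worked in the KO libraries. A score above 0.25 was therefore used as an alternative. Levels are counts per 1000000 summed UMIs with exact Poisson intervals, ratios have exact conditional Poisson intervals, and shares have Clopper-Pearson intervals, all at 95%. T cells, used as the background, had at least 2 UMIs of Cd3d, Cd3e and Cd3g together and at most 2 UMIs of the 6 neutrophil genes together. That limit left out T cells rich in neutrophil RNA, so the background of neutrophil genes may be understated. Thinning drew 500 UMIs per cell without replacement. Scaling alternatives used TMM factors and median-of-ratios factors (edgeR 4.0.16 in R 4.3.3 for TMM). With 1 library per group no test of conditions was made. The ratio intervals were run on simulated Poisson sums before use. Those sums left out the gathering of a gene's UMIs in single cells, so that run cannot show how the intervals hold in these data.

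Named genes were the 10 highest and 10 lowest of each comparison that held UMIs in at least 20 cells of the higher library and stayed past 1.5-fold without the highest cell. Added to them were up to 4 genes per list with the greatest ratios and the genes furthest from the other neutrophil sets. For both comparisons of a kind, the 10 genes each way whose smaller ratio was largest were added, with no 1.5-fold limit. The cells, the 19 gene lists and the 13 marker lists were chosen with earlier results of these data known. The symbols Ahsp, Clec7a and Mx2 of the lists were not found in the gene table. Asf1a, Hbb-bs and genes named to show that they did not differ, such as Pglyrp1, were added after their values were seen.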

Additional observations from a re-analysis of the deposited data

Results flagged for a closer look

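Genes past 1.5-fold in opposite directions with anti-PD-1 in the 2 tumour genotypes were set aside, and 3 of them met the rule for named genes. Of 2554 genes, 15 were higher in WT and lower in KO, and 5 went the other way. The difference between the genotypes was not tested, since each group is 1 library. Rnf114, a ubiquitin ligase, had 73.1 CPM in KO anti-PD-1, 29.0 in KO IgG, 36.3 in WT anti-PD-1 and 69.0 in WT IgG neutrophils, with log2 ratios of anti-PD-1 over IgG of 1.33 in KO and -0.93 in WT. Ptges3, a co-chaperone of Hsp90, had 24.4, 48.1, 74.4 and 47.1 CPM, with ratios of -0.98 in KO and 0.66 in WT. Hspa4l, a heat-shock protein of the Hsp110 kind, had 43.0, 81.1, 109 and 60.6 CPM, with ratios of -0.92 in KO and 0.84 in WT. The 2 chaperone genes were highest in WT anti-PD-1 neutrophils and lowest in KO anti-PD-1 neutrophils. They were picked for going opposite ways, so this order follows in large part from the choice.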

How the results depend on the processing

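No paired analysis was possible because each group is 1 library, and leaving out a library leaves no comparison. The share ratios stayed on their side of 1 in the settings run and moved beyond their interval only with cells of at least 700 UMIs, to 1.58 for KO anti-PD-1 over WT anti-PD-1 and 0.730 for KO anti-PD-1 over KO IgG among all cells. Counts of genes past 1.5-fold moved more. In thinned counts (1219 genes) there were 106 higher and 62 lower in KO IgG against WT IgG, 98 lower in KO anti-PD-1 against WT anti-PD-1, 86 higher in WT anti-PD-1 against WT IgG, and 87 higher and 50 lower in KO anti-PD-1 against KO IgG, with fewer genes tested. TMM gave 135 higher and 130 lower for the antibody in WT and 100 and 250 in KO, and median-of-ratios 135 and 130, and 115 and 217. With no minimum on UMIs (13326 genes), the counts were 3904 and 3838 for KO IgG over WT IgG, 3593 and 2542 for KO anti-PD-1 over WT anti-PD-1, 3499 and 2334 for the antibody in WT, and 3435 and 2724 in KO, mostly genes of few UMIs. Single genes changed sign in 13 cases, against 3220 that moved by little and 95 that moved more. In thinned counts these were BC100530 (-0.27 for KO IgG over WT IgG, -0.077 for KO anti-PD-1 over KO IgG), Ngp (-0.068 for KO IgG over WT IgG, -1.12 for WT anti-PD-1 over WT IgG), Camp (0.76 for KO anti-PD-1 over WT anti-PD-1, -1.45 for WT anti-PD-1 over WT IgG), and Ccl4 (-0.077) and Chil3 (-0.20) for WT anti-PD-1 over WT IgG. Without the highest cell they were Gpnmb (0.13) and Stfa3 (-0.33) for KO anti-PD-1 over KO IgG and Camp (0.54) for KO anti-PD-1 over WT anti-PD-1. As a mean over cells they were Stfa3 (-0.15, KO anti-PD-1 over KO IgG) and Ccl4 (-0.11, WT anti-PD-1 over WT IgG). The cause was not tested. The minimum scaled to T cell depth was chosen after seeing the data. Depth limits genes of few UMIs, and counting intervals do not cover differences between mice.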

Other observations

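The 794 Siglecf-positive neutrophils left out by the rule included cells with at least 3 Retnlg UMIs, which were 11 of 95 in KO anti-PD-1, 24 of 279 in KO IgG, 15 of 178 in WT anti-PD-1 and 21 of 242 in WT IgG lungs. Of the 280 Rsad2-positive neutrophils, 33 of 60 held that many in KO anti-PD-1, 28 of 56 in KO IgG, 41 of 87 in WT anti-PD-1 and 40 of 77 in WT IgG lungs. At 500 UMIs per cell, 582, 732, 307 and 296 of the members in those groups still met the rule.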
